A study of Mus musculus with 24 samples.

Results

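Reelin signalling and the neurons that supply it were followed through 10 genes of the 54658 in the deposited table, chosen by gene symbol. They are *Reln*, which encodes the ligand, *Vldlr* and *Lrp8*, which encode its receptors, *Dab1*, which encodes the adaptor that the receptors act through, and *Trp73*, *Lhx1*, *Lhx5*, *Calb2*, *Ebf2* and *Ebf3*, which mark Cajal-Retzius neurons. All 10 were found, and all 10 passed the filter on low values (a mean of at least 10) in each comparison. The libraries came from mouse embryos that lacked the centrosomal protein CEP135, *Cep135*(Δ8/Δ8), given as Cep135 (-/-) in the labels, with an 8-base deletion on both alleles, called mutants here, and from *Cep135*(+/+) embryos, called controls. There were 3 mutants and 3 controls in each of 4 settings, namely dorsal telencephalon at E11.5, dorsal telencephalon at E14.5, and incipient neurospheres grown for 12 hours or 24 hours from papain-digested neocortex of the same 6 E14.5 embryos in suspension with EGF and FGF2. Each library stands for 1 embryo, the mutation is carried by every cell of the embryo, and no drug was given. The mutants at E11.5 are A, B and C and the controls D, E and F, read as 2 litters from the prefixes of the sample names. At E14.5 the mutants are 1, 2 and 6 and the controls 3, 4 and 5, read as 1 litter in the same way. Their cultures keep these numbers, and the labels do not name litters.

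Cajal-Retzius neurons are among the earliest neurons of the cortex. They arise at the margins of the pallium, mainly the cortical hem, the septum and the ventral pallium, spread over the surface under the meninges, and secrete reelin into the marginal zone. Reelin binds the VLDL receptor and the apolipoprotein E receptor encoded by *Lrp8* on migrating neurons, the adaptor DAB1 is then phosphorylated by SRC family kinases, and the loss of any step inverts or disorders the cortical layers. Later in development reelin is also made by interneurons.

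The libraries held 4732781 to 11645213 reads on genes and were made by priming on the polyA tail, so that 1 fragment per transcript end is counted. Values are normalized read counts, the reads of a gene divided by 1 size factor per library. The targeted gene could not check the genotypes, since its reads come from the 3′ end and not from the deleted bases. *Cep135* ran from 171 to 375 in controls and from 173 to 336 in mutants of the 2 ages in cortex, with overlapping groups at each age. Markers of the labelled tissue were present in each library, the summed apical progenitor genes (*Sox2*, *Pax6* and 5 more) lying between 7918 and 17797 and the summed projection neuron genes (*Neurod6*, *Tubb3* and 5 more) between 6019 and 33156. At E14.5 the controls were all male by their sex-linked transcripts, and of the mutants 2 were female and 1, mutant 6, was male. The label of the cortex of mutant 6 gives both ages and was read as E14.5.

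The starts of 3 members are shown because their transcripts were the Cajal-Retzius genes with groups that did not overlap at E14.5 and with a start in the RefSeq table outside the exons of the gene itself. The table (GRCm38.p6) held 12 starts of 7 of the 10 members. *Lhx1* and *Ebf2* also did not overlap at E14.5, but the window of *Lhx1* ended on the first base of the gene, and *Ebf2* had no start in the table. The sequences are the 250 bases before the annotated start, 5′ to 3′ on the strand of the gene, with each E-box (CANNTG, searched on both strands), the site of basic helix-loop-helix factors, in capitals. They lie at chr5:22344706-22344955 on the minus strand for *Reln*, 4 bases upstream of the gene's first base in GENCODE, at chr4:154097174-154097423 on the minus strand for the internal start of *Trp73*, inside the gene, and at chr7:137314446-137314695 on the minus strand for *Ebf3*, directly upstream of the gene. The internal *Trp73* window also lies in an exon of the antisense transcript *Trp73os*.
Reln: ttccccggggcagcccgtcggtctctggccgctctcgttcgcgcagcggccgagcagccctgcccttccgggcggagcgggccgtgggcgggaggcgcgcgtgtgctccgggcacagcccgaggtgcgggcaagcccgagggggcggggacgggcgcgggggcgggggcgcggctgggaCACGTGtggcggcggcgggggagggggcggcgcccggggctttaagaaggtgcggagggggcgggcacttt
Trp73 internal: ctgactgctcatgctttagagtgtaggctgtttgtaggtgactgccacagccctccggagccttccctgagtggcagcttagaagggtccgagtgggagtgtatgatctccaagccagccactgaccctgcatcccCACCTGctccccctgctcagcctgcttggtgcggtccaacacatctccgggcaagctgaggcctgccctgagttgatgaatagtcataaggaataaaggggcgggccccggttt
Ebf3: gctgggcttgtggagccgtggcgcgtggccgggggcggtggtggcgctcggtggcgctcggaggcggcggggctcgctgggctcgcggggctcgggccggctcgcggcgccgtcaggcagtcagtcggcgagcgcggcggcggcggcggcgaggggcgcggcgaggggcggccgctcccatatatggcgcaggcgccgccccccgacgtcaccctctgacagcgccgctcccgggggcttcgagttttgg
The *Reln* and *Trp73* windows each held 1 E-box, and that of *Ebf3* held 0, while 66.2% of the 32851 mouse starts in the table held at least 1. None of the 12 member windows held the palindromic EBF site, which 0.779% of all windows held. The LIM homeodomain core TAATTA was found in 1 member window, that of a *Vldlr* start, and in 4.84% of all windows. GC content was 80% before *Reln* and *Ebf3* and 58.4% before the internal *Trp73* start, beside a median of 52.4% over all windows. A read at the 3′ end does not tell which of the *Trp73* starts a transcript came from.

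**Figure D1:**
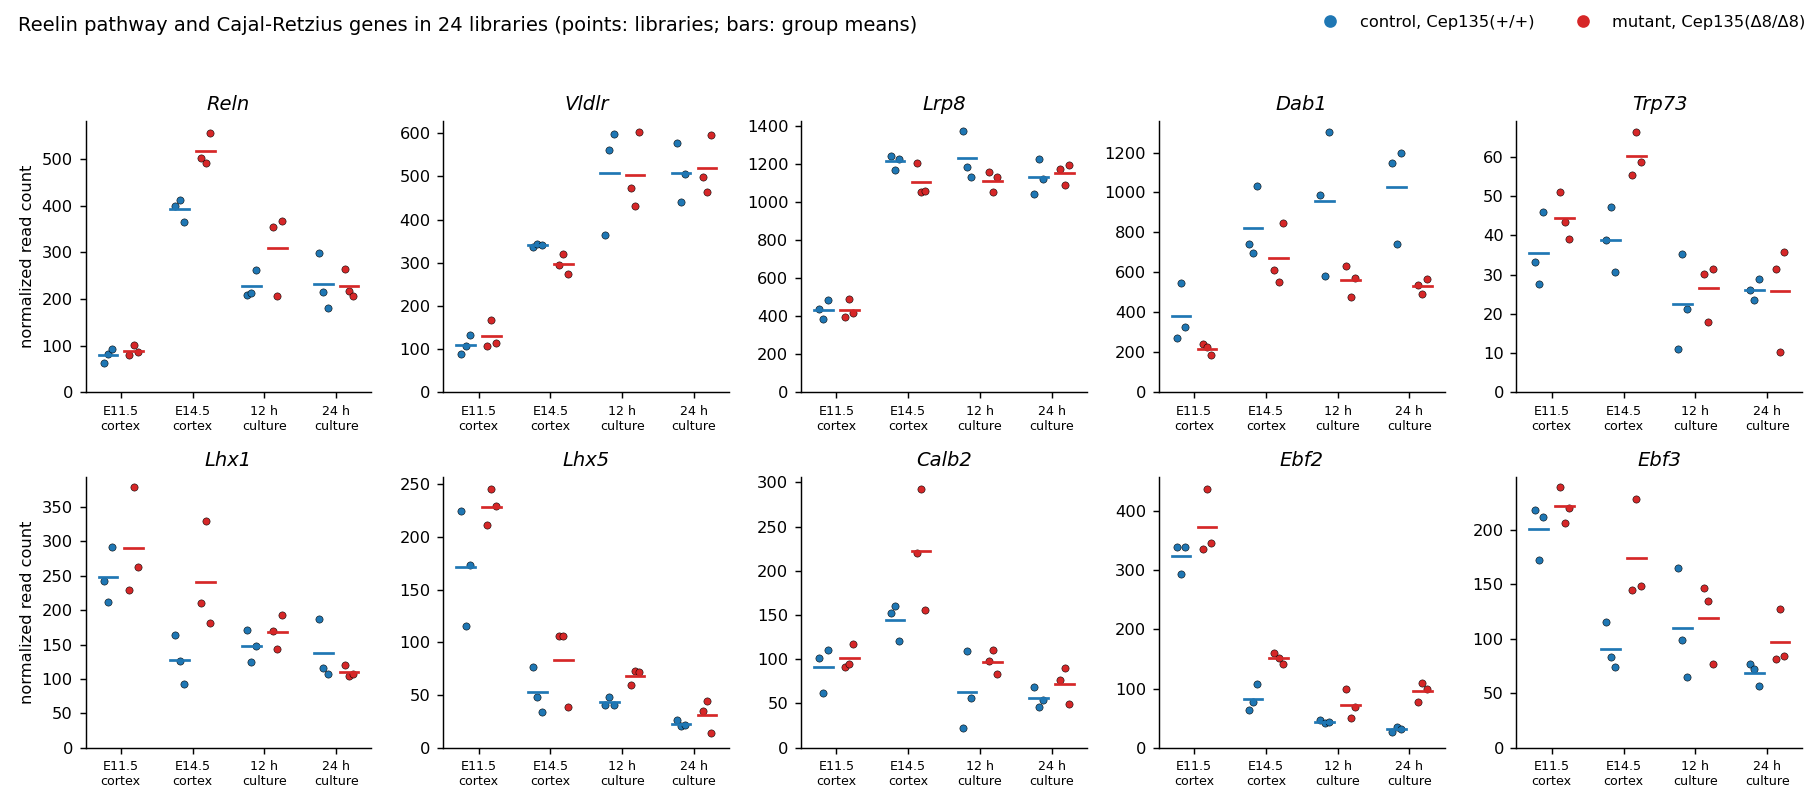
Normalized read count (vertical axis, linear from 0) of each of the 10 genes in the 24 libraries, by setting (horizontal axis), with 1 point per library, controls in blue, mutants in red and bars at the group means. *Reln* is highest at E14.5, where its mutants (491 to 556) lie above its controls (365 to 412), and *Dab1* mutants at 24 hours (491 to 566) lie below the controls (743 to 1196).

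The ligand, the receptors and the adaptor rose with age, and most of the transcription factors fell. From E11.5 to E14.5, over 6 cortices of each age with genotype as a term, 5 members rose and 4 fell (limma, adjusted p under 0.05). Over all 13650 genes tested, 23.8% rose and 29.3% fell, so that calls were common in this comparison. The median log2 fold change was 0.58 over the 10 members and -0.08 over all genes. No litter, as read from the sample names, held both ages, so age and litter cannot be told apart in these values.

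*Reln*, the secreted ligand, was at 63.5, 82.8 and 93.3 in the E11.5 controls D, E and F and at 80.0, 100.4 and 85.1 in the mutants A, B and C. At E14.5 it was at 399, 412 and 365 in controls 3, 4 and 5 and at 501, 491 and 556 in mutants 1, 2 and 6. Each E14.5 cortex thus lay above each E11.5 cortex, and *Reln* rose 5.34-fold (log2 fold change 2.42 ± 0.11 SE, limma adjusted p = 1.02e-10). *Vldlr*, which rose 2.70-fold (log2 1.43 ± 0.13), went from 109 ± 22.3 to 340 ± 3.33 in controls (SD, n = 3). *Lrp8* rose 2.67-fold (log2 1.42 ± 0.09), from 434 ± 51.4 to 1212 ± 38.2 in controls. *Dab1* rose 2.60-fold (log2 1.38 ± 0.17), from 382 ± 146 to 824 ± 180 in controls. *Calb2*, the calcium-binding protein calretinin, rose 1.85-fold (log2 0.89 ± 0.18), from 91.3 ± 25.9 to 144 ± 20.8 in controls. In these 5 members every E14.5 cortex lay above every E11.5 cortex, and in 2 members, *Ebf2* and *Lhx5*, every E14.5 cortex lay below. The share of all genes without overlap between the ages was not counted.

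The transcription factors of Cajal-Retzius neurons moved otherwise. *Ebf2*, a helix-loop-helix factor, fell from 324 ± 26.6 to 82.9 ± 22.9 in controls and from 373 ± 55.8 to 151 ± 9.75 in mutants (SD, n = 3). Its log2 fold change was -1.64 ± 0.15, and no E14.5 cortex reached the lowest E11.5 cortex. *Lhx5*, a LIM homeodomain factor, was at 225, 115 and 173 in E11.5 controls and at 76.5, 47.9 and 34.0 in E14.5 controls (log2 -1.64 ± 0.25). *Ebf3* (log2 -0.76 ± 0.17) and *Lhx1* (log2 -0.63 ± 0.19, limma adjusted p = 0.011) fell less, and their ages overlapped. *Trp73*, which encodes the p53 relative p73, was the member without a call (log2 0.28, 95% interval -0.08 to 0.64). In a bulk sample fewer cells of a type and less RNA per cell cannot be told apart, and a level is relative to all other RNA of the sample.

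Other genes of the pathway were read from a list of 25 transducers, all tested. From E11.5 to E14.5, 7 of them rose and 3 fell. Of all 13650 genes tested 23.8% rose and 29.3% fell, the shares beside each list count by age here and below. The transducers that rose were led by *Cdk5r1*, the neuronal activator of CDK5 (log2 2.03), *Fyn*, a kinase that phosphorylates DAB1 (log2 0.83), and *Pik3r1*, a regulatory subunit of PI3 kinase (log2 0.80). *Rap1b*, a small GTPase, was among those that fell (log2 -0.47). Of 5 proteases that cleave reelin or activate those that do, *Adamts3* (log2 1.17) and *Adamts5* (log2 1.15) rose. Of 8 other genes used as Cajal-Retzius markers, 5 rose, led by *Ebf1*, *Tbr1* and *Car10* (log2 1.05, 1.29 and 2.98), and *Lhx9* fell (log2 -0.42), while several of these genes are also made by projection neurons, whose 7 markers all rose. Of 9 interneuron genes, 8 rose, among them *Npy* and *Sst* (log2 3.22 and 5.14). The part of interneurons in the level of *Reln* was not tested.

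The sources of Cajal-Retzius neurons were also read by their own markers across age. Of 5 tested cortical hem genes 4 fell, among them the Wnt agonists *Rspo1* and *Rspo2* (log2 -2.47 and -1.84). Of 4 tested genes of the septum and ventral pallium 4 fell, led by *Fgf8* and *Fgf17* (log2 -3.25 and -2.43). Of 7 meningeal genes 5 fell and *Dcn* rose (log2 1.77). Of 7 apical progenitor genes 6 fell and 1 rose (median log2 -0.87). In the families of the members, 4 of 11 tested relatives rose and 6 fell, with *Lrp2* (log2 -2.81) opposite in sign to the receptors *Vldlr* and *Lrp8*, and *Dab2* (log2 -1.09) opposite to *Dab1*.

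**Figure D2:**
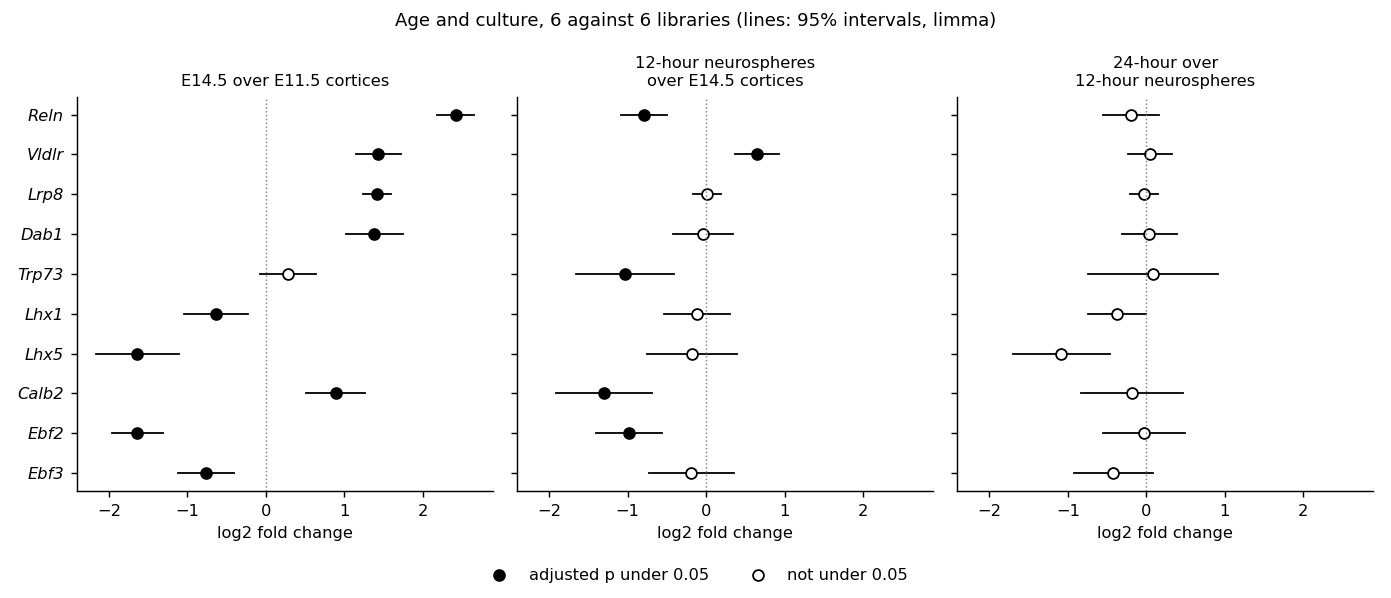
Log2 fold change (horizontal axis) of each gene with age (left), with 12 hours of culture (middle) and from 12 to 24 hours (right), 6 libraries against 6, as points with 95% intervals from limma, filled where the adjusted p was under 0.05. With age 9 of 10 genes were called, from *Reln* at 2.42 to *Lhx5* and *Ebf2* at -1.64, with 12 hours of culture 5, and from 12 to 24 hours 0. Age and litter cannot be told apart.

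At E14.5 the 7 Cajal-Retzius markers all had higher means in mutants than in controls, by log2 0.40 to 0.92, but none passed the threshold over all genes. The lowest adjusted p among them was 0.294 (limma), for *Ebf2*. Genes called in this comparison were 0.0736% of 13583, and 0 of the 10 members was among them by limma, edgeR or DESeq2. In 5 of the 7 markers every mutant lay above every control, beside 7.02% of all genes tested, and the exact permutation p of each was 0.1 (two-sided), the smallest that 3 embryos against 3 allow. *Vldlr* was the member with every mutant below every control, beside 6.71% of all genes. These markers are chosen for 1 cell type and were measured in the same 6 embryos, so they do not count as separate observations of it. At an unadjusted limma p under 0.05 there were 6 members and 9.10% of all genes tested.

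*Ebf2* was at 160, 152 and 141 in the E14.5 mutants 1, 2 and 6 and at 63.5, 76.9 and 108 in controls 3, 4 and 5. The mutants were the tighter group, and the log2 fold change was 0.89 (95% interval 0.43 to 1.35). Without control 5 it was 1.10 with a limma adjusted p of 0.0336, the call that any alternative gave a member at this age. Leaving out that control also raised the calls over all genes, from 10 of 13583 to 74 of 13571. *Ebf3* was at 145, 229 and 149 in mutants and at 115, 83.5 and 74.1 in controls (log2 0.92, 0.42 to 1.42), with mutant 2 far above the others. *Lhx1* was at 210, 330 and 182 in mutants and at 164, 126 and 92.4 in controls (log2 0.90, 0.35 to 1.46), again with mutant 2 the highest and control 5 the lowest.

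*Reln* mutants (491 to 556) exceeded controls (365 to 412) by less, 1.32-fold, with narrow groups (log2 0.40, 95% interval 0.11 to 0.68). *Trp73*, needed for Cajal-Retzius neurons to survive, was at 55.3, 66.2 and 58.7 in mutants and at 38.8, 47.2 and 30.5 in controls (log2 0.63, 0.11 to 1.16), at 33 to 75 reads per library. *Calb2* was at 220, 293 and 156 in mutants and at 152, 160 and 120 in controls, and here the male mutant 6 lay among the controls. The same held for *Lhx5*, at 106, 106 and 38.4 in mutants and 76.5, 47.9 and 34.0 in controls. Since the controls were all male, a term for sex rests the genotype effect on mutant 6, and with it *Lhx5* turned to log2 -0.37 and *Calb2* dropped to 0.12, while *Reln*, *Trp73*, *Ebf2*, *Ebf3* and *Lhx1* gave 0.51, 0.61, 0.79, 0.73 and 0.55, with limma adjusted p from 0.737 to 0.749. Sex and genotype cannot be told apart further in these embryos.

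The receptors and the adaptor had lower means in the E14.5 mutants, with intervals that include 0. *Vldlr* was at 295, 319 and 274 in mutants and 336, 343 and 342 in controls, a log2 fold change of -0.20 (95% interval -0.49 to 0.09). *Lrp8* lay between 1050 and 1241 in all 6 cortices (log2 -0.14, -0.40 to 0.13). *Dab1* was at 613, 551 and 848 in mutants and at 741, 699 and 1030 in controls, overlapping groups with log2 -0.30 (-0.72 to 0.12).

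Marker lists moved beside the Cajal-Retzius genes at E14.5. The 7 Cajal-Retzius genes summed to 1280 to 1667 in mutants and 825 to 1008 in controls. The 7 cortical hem genes summed to 671 to 882 in mutants and 510 to 633 in controls, with 0 of 5 tested called and *Rspo1* and *Rspo2* at log2 1.09 and 0.82 (limma adjusted p = 0.162 and 0.350). The 7 projection neuron genes summed to 24468 to 25477 in mutants and 31207 to 33156 in controls, and *Neurod6*, a factor of differentiating projection neurons, fell (log2 -0.87, limma adjusted p = 0.048). The 7 liver genes lay between 58.7 and 85.0 in mutants and between 65.9 and 998 in controls, and their part in these values was not tested. Meningeal sums overlapped (1957 to 2792 in mutants, 1750 to 2472 in controls), as did choroid plexus, interneuron and apical progenitor sums and those of the septum and ventral pallium. The olfactory and peripheral sensory list summed to 442 to 534 in mutants and 336 to 403 in controls, with 0 of 2 tested genes called. The part of each list in the member values was not tested.

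**Figure D3:**
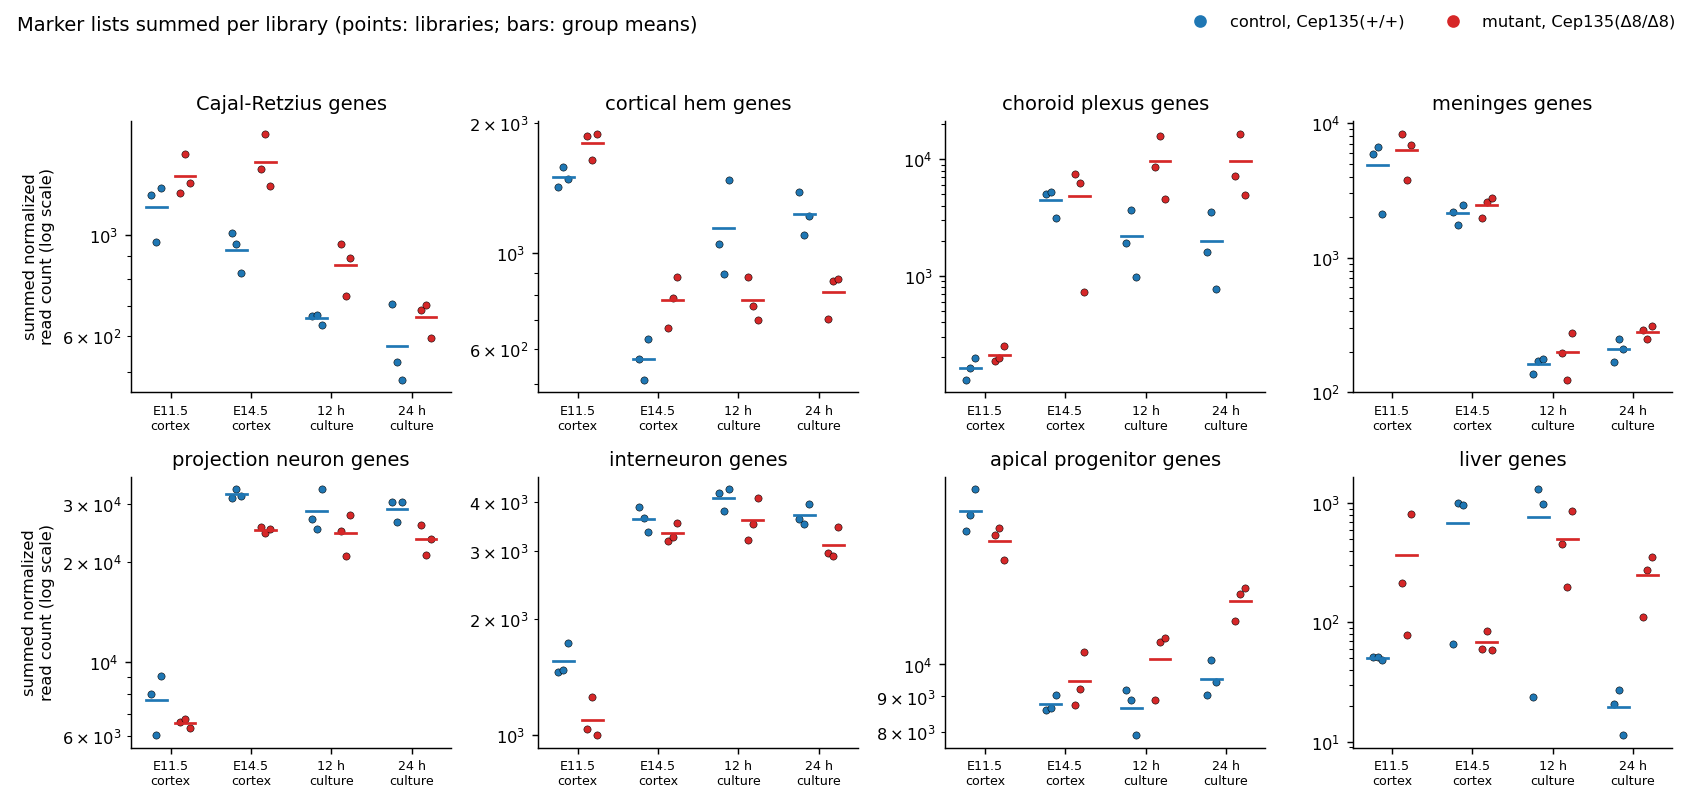
Summed normalized read count (vertical axis, log scale) of 8 marker lists in the 24 libraries, 1 point per library, controls in blue, mutants in red, bars at group means. At E14.5 the Cajal-Retzius and hem sums of the mutants lie above, and the projection neuron sums below, those of the controls, and in culture the choroid plexus sums of the mutants (4581 to 16605) lie above those of the controls (776 to 3689).

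At E11.5 the same 7 markers also had higher means in mutants, by log2 0.15 to 0.47, with overlapping groups in each and a lowest adjusted p of 0.676 (limma), for *Lhx5*. Genes called were 0.0149% of 13406, with 0 members among them by limma, edgeR or DESeq2 and 1, *Dab1*, at an unadjusted limma p under 0.05, beside 7.39% of genes. *Reln* differed by log2 0.16 (95% interval -0.27 to 0.59), *Trp73* by 0.34 (-0.23 to 0.90), *Ebf2* by 0.20 (-0.11 to 0.50) and *Lhx5* by 0.47 (-0.01 to 0.94). *Dab1* was at 242, 226 and 185 in mutants and at 270, 548 and 329 in controls, so that each mutant lay below each control, a pattern that 6.11% of genes shared, while no member had every mutant above every control, as 7.16% of genes did. Its log2 fold change was -0.75 (-1.27 to -0.24, limma adjusted p = 0.585). The 9 interneuron genes were all lower on average, summed to 999 to 1255 in mutants and 1460 to 1730 in controls, with 0 called. Hem sums were 1641 to 1891 in mutants and 1427 to 1586 in controls, those of the septum and ventral pallium 2236 to 2422 and 1786 to 2071, and the liver sums 78.1 to 809 and 48.2 to 51.4, again without overlap and with 0 genes called.

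Taking the 12 cortices together with age as a term, 0 members passed the threshold of limma, edgeR or DESeq2, beside 0.139% of 13650 genes. No member was above or below the controls without overlap at both ages, where 0.813% of genes were above and 0.52% below. All 7 markers again had higher means, from log2 0.28 (*Reln*) to 0.55 (*Lhx1*), and 7 members had an unadjusted limma p under 0.05, beside 8.71% of genes. *Ebf2* came nearest to a call (log2 0.54, 95% interval 0.22 to 0.86, adjusted p = 0.266), with an exact permutation p of 0.015 (two-sided, labels permuted within age, smallest possible 0.005). The receptors lay near 0, *Vldlr* at log2 0.01 (-0.27 to 0.30) and *Lrp8* at -0.07 (-0.25 to 0.11). *Dab1* stood at -0.53 (-0.89 to -0.16, adjusted p = 0.374). Litter as a block in place of age left each of these uncalled. Of the hem genes, *Rspo2* rose in mutants over both ages (log2 0.71, limma adjusted p = 0.025).

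Whether the genotype effect changed with age was tested as an interaction, which called 0 members and 0% of 13650 genes, with 1070 genes, 2 of them members, at an unadjusted limma p under 0.05. *Ebf2* and *Ebf3* had the lowest p of the members, their mutant to control difference being larger at E14.5 by log2 0.70 and 0.77 (adjusted p = 0.620 for each). That the markers stood apart at E14.5 and not at E11.5 is therefore not shown to be a difference between ages.

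After 12 hours in culture 4 members were lower than in the E14.5 cortices and 1 was higher, over 6 libraries each with genotype as a term. Of 13601 genes tested 14.1% rose and 16.1% fell. *Calb2* fell most, from 144 ± 20.8 to 62.5 ± 43.9 in controls and from 223 ± 68.4 to 97.4 ± 13.6 in mutants (SD, n = 3, log2 -1.30 ± 0.29). *Trp73* fell by 1.03 on the log2 scale (limma adjusted p = 0.0155), at counts as low as 7 reads in a library. *Ebf2* fell by 0.98, a call that was lost with the share of *Gm42418*, an RNA gene with ribosomal sequence, as a term (log2 -0.77, adjusted p = 0.0712), and *Reln* by 0.79, the latter from 392 ± 23.9 to 227 ± 29.6 in controls. The receptor *Vldlr* rose 1.57-fold (log2 0.65 ± 0.13), from 340 ± 3.33 to 508 ± 125 in controls and from 296 ± 22.5 to 502 ± 88.8 in mutants, and each culture lay above each cortex. *Lrp8* (log2 0.01, 95% interval -0.16 to 0.19), *Dab1* (-0.04, -0.42 to 0.34), *Lhx1*, *Lhx5* and *Ebf3* were not called. With the embryo as a replicate block the same 5 members were called, and *Trp73* had an adjusted p of 0.0232.

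Around them the 7 meningeal genes all fell in culture, led by *Col1a2* and *Col1a1* (log2 -3.67 and -3.70), and 4 of 5 hem genes fell, with *Rspo3* higher (log2 1.18). Of the 25 transducers 4 rose and 0 fell, beside 14.1% and 16.1% of all genes tested. The 4 were *Pik3r1* (log2 0.61), *Pafah1b1*, the lissencephaly gene (0.26), *Cfl1*, an actin-severing target of the pathway (0.40), and *Fyn* (0.27). Of 8 other Cajal-Retzius genes 3 fell, *Lhx9*, *Nhlh2* and *Cxcr4* (log2 -1.50, -1.23 and -1.05), and 0 rose. *Adamts3* rose (log2 1.11) among 4 tested proteases. Of 11 tested relatives 4 rose, among them *Lrp1* and *Calb1* (log2 0.38 and 0.57), and *Dab2* fell (log2 -2.62). Of 9 interneuron genes 4 rose and 2 fell, and of 7 projection neuron genes 2 fell. Of 7 apical progenitor genes 5 fell and 1 rose (median log2 -0.92), led by *Hes5* (log2 -4.23), a target of Notch.

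From 12 to 24 hours 0 members passed the threshold, where 0.15% of 13359 genes rose and 0.142% fell, and 2 members had an unadjusted limma p under 0.05, beside 9.64% of genes, with 0 called by edgeR. With the embryo as a replicate block 104 genes were called in place of 39, and still 0 members. *Lhx5* came nearest, its mean going from 43.3 ± 4.15 to 22.5 ± 3.05 in controls and from 67.9 ± 7.32 to 31.0 ± 15.6 in mutants (SD, n = 3, log2 -1.08, 95% interval -1.70 to -0.47, adjusted p = 0.159), and DESeq2 called it (adjusted p = 0.0372). *Reln* differed by -0.20 (-0.56 to 0.16), *Vldlr* by 0.04 (-0.24 to 0.32), *Lrp8* by -0.03 (-0.21 to 0.15) and *Dab1* by 0.04 (-0.31 to 0.38), and the 8 other Cajal-Retzius genes had 0 calls.

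In the 12-hour neurospheres no gene was called by genotype, 0% of 13389 by limma and 0 by edgeR, with 650 genes at an unadjusted limma p under 0.05, and 9 by DESeq2, 0 of them members. Of the members *Dab1* had an unadjusted limma p under 0.05 (log2 -0.70, adjusted p = 0.913), at 634, 479 and 573 in mutants and 988, 584 and 1300 in controls, where control 4 lay among the mutants. All 7 markers had higher means in mutants, from log2 0.17 to 0.90. *Lhx5* (59.5 to 72.6 in mutants, 40.9 to 48.1 in controls) and *Ebf2* (50.5 to 98.5 and 41.1 to 47.2) did not overlap, beside 5.09% of genes with every mutant above, while 0 members had every mutant below, beside 5.94%. *Calb2* spread widely, at 98.5, 110 and 83.3 in mutants and 22.0, 109 and 56.2 in controls. *Reln* was at 354, 205 and 367 in mutants and 208, 213 and 261 in controls, with mutant 2 the lowest of the 6 (log2 0.40, 95% interval -0.16 to 0.96).

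At 24 hours 2 members were called by genotype, *Ebf2* higher and *Dab1* lower in mutants, beside 0.271% of 13300 genes. *Ebf2* was at 77.4, 109 and 99.5 in mutants 1, 2 and 6 and at 25.9, 35.4 and 32.5 in controls 3, 4 and 5. Each mutant lay far above each control, and the level was 2.98-fold (log2 1.58 ± 0.29, 95% interval 0.95 to 2.20, limma adjusted p = 0.042). The controls rest on as few as 19 reads. *Dab1* was at 538, 491 and 566 in mutants and 1150, 743 and 1196 in controls, 0.527-fold (log2 -0.92 ± 0.17, -1.29 to -0.56, adjusted p = 0.042), with the mutants close together and control 4 apart from the other controls.

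Of the other members *Ebf3* had every mutant (81.0 to 128) above every control (56.3 to 76.5), so that 2 markers showed this beside 7.15% of all genes, and *Dab1* the reverse beside 9.06%. *Reln* was at 264, 217 and 205 in mutants and 298, 214 and 181 in controls, with fully mixed groups (log2 0.0069, 95% interval -0.43 to 0.44). *Vldlr* (0.03, -0.30 to 0.36) and *Lrp8* (0.03, -0.23 to 0.29) also lay near 0. *Trp73* was at 31.5, 10.1 and 35.8 in mutants and 25.9, 23.6 and 28.8 in controls, the low value of mutant 2 being 10 reads.

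Both calls stood close to the threshold. Leaving out any library but control 4 gave an adjusted p above 0.05 for each (limma, 0.0552 to 0.187 for *Ebf2* and 0.0854 to 0.200 for *Dab1*). Without control 4 it was 0.0347 and 0.00312. Over these fits *Ebf2* lay at log2 1.45 to 1.72 and *Dab1* at -1.14 to -0.80. Without mutant 1 the calls were lost although both were further from 0, at 1.72 and -0.93. Calls over all genes numbered 7 to 46 without 1 library, beside 36 with none left out. EdgeR and DESeq2 called both (adjusted p = 0.0415 for each with edgeR). Quantile normalization ended both calls (adjusted p = 0.0525 for *Ebf2* and 0.0642 for *Dab1*), as did a term for sex (log2 1.65, adjusted p = 0.146, and log2 -0.83, adjusted p = 0.230), the controls being 3 males and the mutants 2 females and 1 male. The *Dab1* call was also lost with a pseudocount of 0.1 (adjusted p = 0.0505) and with all 24 libraries in 1 fit (0.142), and that of *Ebf2* with a mean of at least 50 (0.0522). The 24-hour groups also differed in depth, with 7903426 to 11645213 reads in mutants and 4732781 to 5709443 in controls, and in the share of *Gm42418*, at 20.5% to 23.0% and 6.26% to 13.9%. These cannot be told apart from genotype, and a term for that share left *Ebf2* at log2 1.54 and *Dab1* at -0.25, both uncalled (adjusted p = 0.939 and 0.944). With that term 0 of all 13300 genes were called, beside 36 without it, so the lost calls are not particular to these 2 members.

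**Figure D4:**
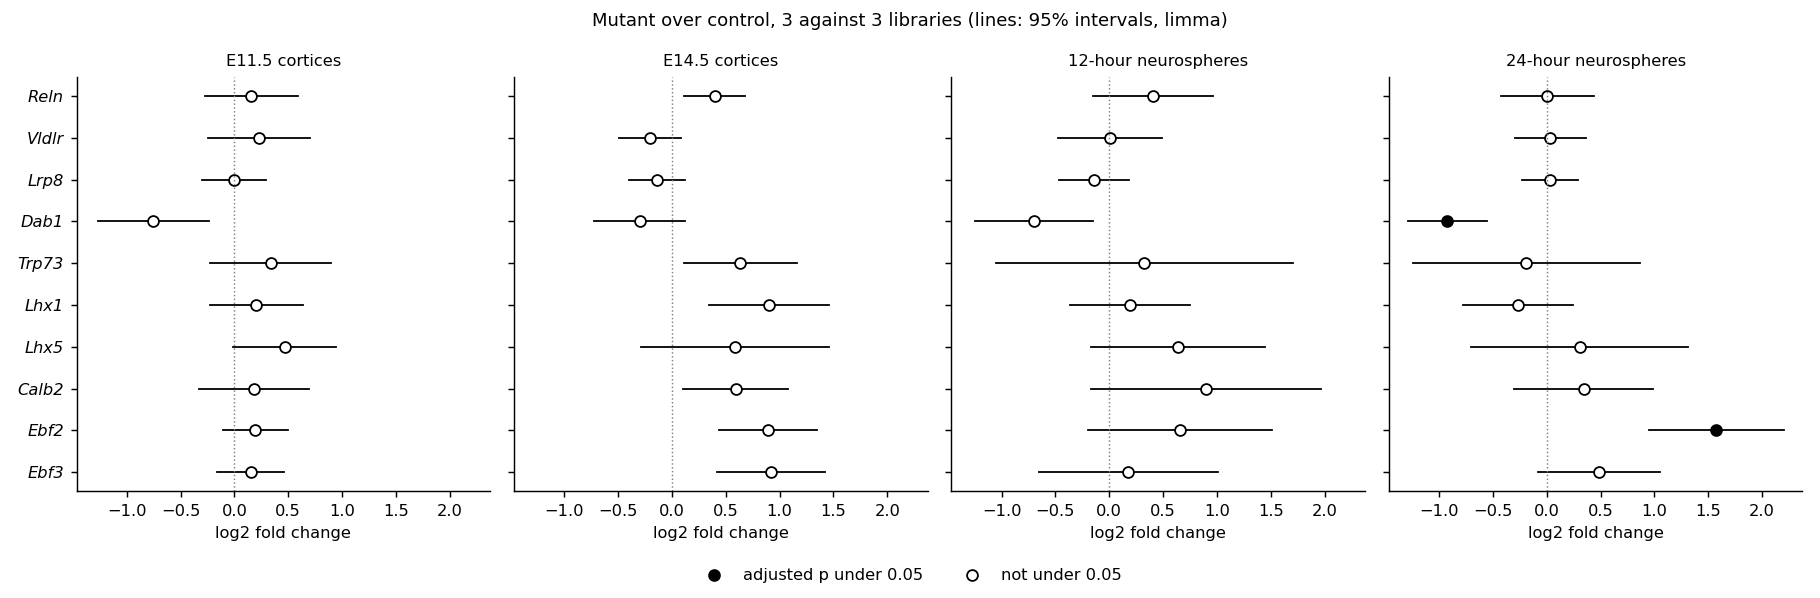
Log2 fold change of mutants over controls (horizontal axis) for each gene in the 4 settings, 3 libraries against 3, as points with 95% intervals from limma, filled where the adjusted p was under 0.05. The Cajal-Retzius markers lie to the right of 0 at E14.5 (0.40 to 0.92), the receptors with intervals that include 0 in each setting, and *Dab1* to the left in each, with *Dab1* and *Ebf2* at 24 hours the filled points.

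The level of *Dab1* followed the share of *Gm42418* from library to library. Over the 24 libraries, as deviations from the 8 group means, the correlation of log2 *Dab1* with the log2 share was -0.88 (Spearman's rho -0.84), and 0% of the 13678 genes whose mean reached 10 had a more negative one. It was -0.82 without the 2 libraries whose share deviated most from that of their group (the 12-hour controls 4 and 5), and -0.97, -0.83, -0.90 and -0.84 within the E11.5 cortices, the E14.5 cortices and the 12-hour and 24-hour neurospheres, of 6 libraries each. Among the 12 controls alone it was -0.94, and among the 12 mutants -0.61. These points share their library and its size factor, and at E14.5 and in culture 6 embryos gave 18 of them. Control 5, with 9.78%, 10.7% and 6.26% in cortex, 12 and 24 hours, had the highest *Dab1* each time (1030, 1300 and 1196), and control E, with 6.11%, the highest at E11.5 (548).

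The *Dab1* difference between genotypes was nearer to 0 in each setting with the share as a term. It went from -0.75 to -0.21 at E11.5, from -0.30 to -0.18 at E14.5, from -0.70 to -0.47 at 12 hours and from -0.92 to -0.25 at 24 hours (log2). At 24 hours the share did not overlap between the genotypes, so share and genotype cannot be told apart there. The part of the share in these differences was not tested. The log2 fold change with age was 1.38 without and 1.47 with the term, and the change in culture went from -0.04 to 0.51 (limma adjusted p = 0.0478). No other member came near this relation, the correlations with the share lying between -0.21 (*Ebf2*) and 0.40 (*Lhx5*). With the log2 number of reads, *Ebf3* had -0.63 and *Trp73* 0.53.

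**Figure D5:**
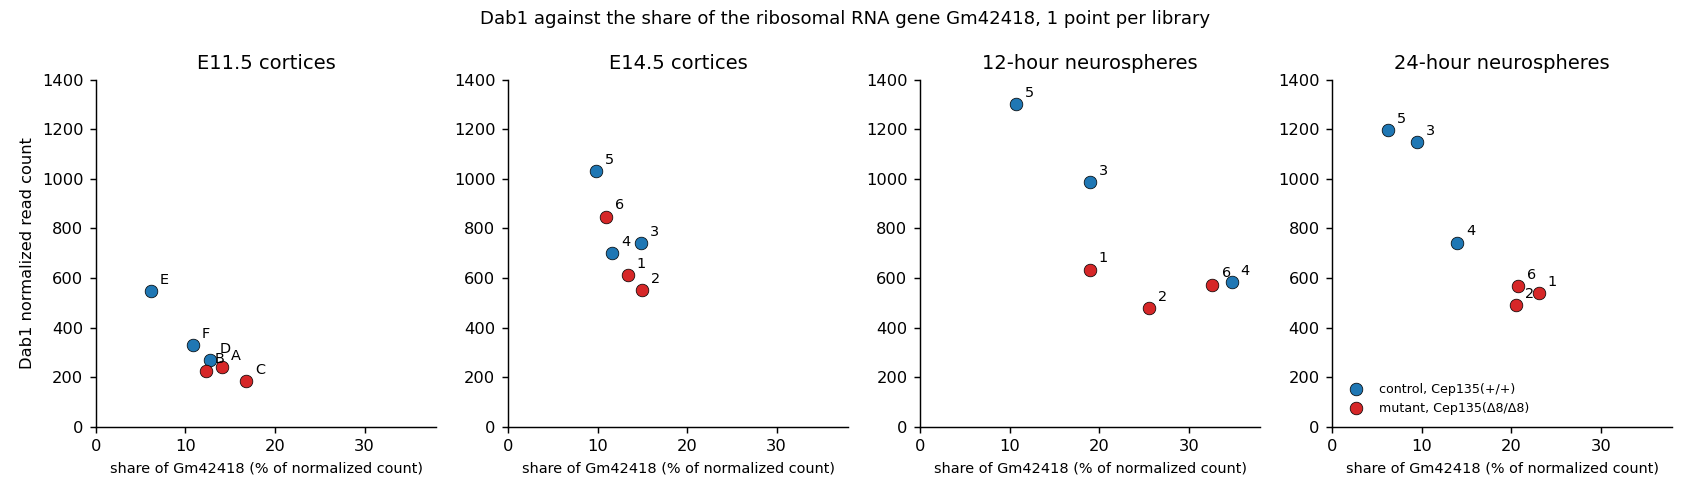
Normalized read count of *Dab1* (vertical axis, linear from 0) against the share of *Gm42418* in the library (horizontal axis, percent of the normalized count), 1 panel per setting and 1 point per library with its embryo, controls in blue and mutants in red. Libraries with a larger share tend to lie lower in each panel, and at 24 hours the mutants (20.5% to 23.0%) and controls (6.26% to 13.9%) do not overlap on either axis.

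Other markers moved with genotype in the cultures. Choroid plexus genes summed to 4912 to 16605 in mutants and 776 to 3557 in controls at 24 hours, and *Ttr* and *Clic6* rose (log2 2.35 and 2.74, limma adjusted p = 0.044 for each). At 12 hours the sums were 4581 to 15870 and 985 to 3689, with 0 of 3 tested genes called. Of 4 tested cortical hem genes 3 had higher means in mutants at 24 hours, uncalled, and *Rspo3* fell (log2 -0.92, limma adjusted p = 0.015), with a median of 0.75 over the 4. Their sum, 706 to 875 in mutants and 1100 to 1385 in controls, thus had the direction of *Rspo3*, and *Wnt3a* and *Wnt2b* were at 0 in each culture. Projection neuron sums were 20988 to 25873 in mutants and 26479 to 30244 in controls, with *Fezf2* (log2 -0.84) and *Neurod6* (-0.71) lower. The liver sums were 112 to 354 and 11.3 to 27.0, with *Serpina1e* and *Alb* higher (log2 5.66 and 4.85). *Serpina1e* was at 0 in each of these controls, so the size of its change depends on the pseudocount. Apical progenitor sums were 11528 to 12874 in mutants and 9032 to 10141 in controls, without overlap. Of their 7 genes 5 had every mutant above every control, beside 7.15% of all genes tested, and 0 were called. Interneuron sums were 2906 to 3463 and 3522 to 3963, and meningeal sums 247 to 309 and 168 to 246, also without overlap and with 0 genes called. The part of these sums in the *Ebf2* and *Dab1* values was not tested.

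The genotype effect in culture was compared with that in the cortex as an interaction, with 0 members and 0% of 13601 genes called at 12 hours and 0% of 13579 at 24 hours (724 and 836 genes, 0 and 2 of them members, at an unadjusted limma p under 0.05). *Lhx1* had the lowest p of the members, its mutant to control difference being lower at 24 hours than in the cortex (log2 -1.17, 95% interval -1.94 to -0.39, adjusted p = 0.700). For *Dab1* the difference was -0.62 (-1.21 to -0.04, adjusted p = 0.786) and for *Ebf2* 0.68 (-0.02 to 1.39). With the embryo as a replicate block 0 members were called in either.

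By genotype, 0 of the 25 transducers was called in any of the 4 settings or in the 12 cortices, beside 0% to 0.271% of all genes tested. At E14.5, 4 of the 25 had an unadjusted limma p under 0.05, beside 9.10% of all genes. There 0 of them had every mutant above every control and 3 had every mutant below, beside 7.02% and 6.71% of all genes. The median log2 fold change of the 25 lay between -0.05 and 0.07. The proteases, the 8 other Cajal-Retzius genes and the 12 relatives of the members also had 0 calls each, while their medians spread more widely, from -0.16 to 0.29. At E14.5 the other Cajal-Retzius genes had a median of 0.13, with 5 of 8 higher in mutants, and *Cacna2d2* and *Ndnf* at log2 0.73 and 0.56 (limma adjusted p = 0.189 and 0.512). At E11.5, by contrast, 2 of 7 tested had higher means and 5 lower (median -0.16), and over the 12 cortices 4 were higher and 4 lower (median -0.04). At 12 hours 8 of 8 had higher means (median 0.29), and at 24 hours 4 of 8.

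Within groups the correlations among the markers were low on the whole. Over deviations from the 8 group means of the 24 libraries, the 21 pairs of the 7 Cajal-Retzius genes had a median correlation of 0.03, from -0.42 (*Trp73* with *Ebf3*) to 0.56 (*Lhx5* with *Calb2*), with 12 above 0, beside a median of 0.00118 over all pairs of genes. *Reln* went with *Vldlr* (0.56) and *Lhx1* (0.50). *Dab1* was opposite to *Calb2* (-0.55), *Lhx5* (-0.53) and *Ebf3* (-0.37). With the share of *Gm42418* these 3 correlated at 0.39, 0.40 and 0.30, and *Dab1* at -0.88. The part of that share in these pairs was not tested.

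Over the 24 libraries without removing the groups, the 5 genes of 13668 most like *Reln* were *Ppp2r2c*, *Sez6l*, *Cadm2*, *Unc5d* and *Draxin* (Pearson's r 0.95, 0.95, 0.92, 0.92 and 0.92). Those most like *Dab1* were *Tmem151b*, *Zfp316*, *Sobp*, *Lhfpl4* and *Zfp773* (r from 0.93 to 0.94). For *Trp73* they were *Eepd1*, *1810014B01Rik*, *Slc35c1*, *Trip4* and *Pbx3*, at lower values (r from 0.75 to 0.83). These values include the differences between ages and between cortex and culture, and 6 of the embryos gave 18 of the 24 libraries.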

How the data were processed

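The authors primed total RNA with oligo(dT) (QuantSeq 3′ FWD), aligned reads to GRCm38 with TopHat2 2.0.10 and counted them on genes, by strand, with HTSeq 0.6.1 (the submitters' processing notes). The deposited unit is a signal, the count divided by 1 size factor per library, and all 484666 values above 0 were whole multiples of 1 read (tolerance 1e-06). Limma 3.58.1 (R 4.3.3, trend) was fitted to log2(value + 1) for genes averaging 10 or more over the compared libraries, Benjamini-Hochberg adjusted over all genes, threshold 0.05. Fold changes are on that scale, which understates low genes. Whole reads went to edgeR 4.0.16 and DESeq2 1.42.0 as alternatives, for control D too, whose step is near 1. Other alternatives were the pseudocount, the filter, TMM and quantile scaling, terms for sex and for the *Gm42418* share, blocks for litter and embryo, and leaving out each library. The fits were tested on simulated data with 1 spread setting for every gene and changes larger than most member differences by genotype. That test does not show how well such smaller differences would be found. Same-numbered libraries came from the same embryo by the labels, and their deviations correlated at -0.11 to 0.24 (median 0.14, 18 pairs). Positions are GENCODE vM21. Litters were read from the prefixes of the sample names, since the labels do not name them. Mutants B and C carry 2 prefixes, 1 shared with controls E and F and 1 found in no other library. They were read as 1 litter with controls E and F. Members and lists were chosen with earlier results of these data known. All members were named, and of each list up to 3 genes per direction and comparison with the smallest p past the threshold, and others by their values where a sentence singles them out. Some listed genes are not reported here.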

Additional observations from a re-analysis of the deposited data

How the results depend on the processing

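The 9 calls with age stood under all 21 alternatives, none of which sets age apart from litter. At 24 hours the 2 member calls became 1 with a pseudocount of 0.1, with a mean of at least 50 and with all 24 libraries in 1 fit, and 0 with quantile normalization, the *Gm42418* share or sex as a term, and ranged from 0 to 2 without 1 library. At E14.5 the count ranged from 0 to 1 without 1 library, where calls over all genes ranged from 1 to 74. DESeq2 gave 1 member from 12 to 24 hours. With the embryo as a replicate block 5 members were called from cortex to 12 hours, and no call of a member changed under this pairing or with litter as a block. The cause of each change was not tested. Log2 fold changes that turned sign, none of them a call before, were these. With a term for sex the sign turned for *Lrp8* 0.090 by genotype at E11.5, *Dab1* 0.064, *Lhx5* -0.37 by genotype at E14.5, *Ebf3* -0.40 by genotype at 12 hours, *Reln* -0.14, *Trp73* 0.45, *Lhx5* -0.64, *Calb2* -0.14 by genotype at 24 hours, *Lrp8* 0.012 by genotype over the 12 cortices. With a term for the *Gm42418* share the sign turned for *Calb2* -0.26, *Ebf3* -0.030 by genotype at E11.5, *Vldlr* -0.0097 by genotype at 12 hours, *Reln* -0.30, *Lrp8* -0.11 by genotype at 24 hours, *Dab1* 0.51, *Lrp8* -0.0058 from cortex to 12 hours, *Dab1* -0.30, *Lrp8* 0.013, *Ebf2* 0.025 from 12 to 24 hours. With edgeR the sign turned for *Vldlr* -0.0082 by genotype at 12 hours, *Reln* -0.00057, *Trp73* 0.012 by genotype at 24 hours, *Vldlr* -0.024 by genotype over the 12 cortices. With DESeq2 the sign turned for *Vldlr* -0.0031 by genotype at 12 hours, *Trp73* 0.0082 by genotype at 24 hours, *Vldlr* -0.022 by genotype over the 12 cortices. With TMM the sign turned for *Vldlr* -0.0045 by genotype over the 12 cortices. With quantile normalization the sign turned for *Lrp8* -0.093 from cortex to 12 hours. For the members by genotype at E11.5 the range without 1 library was -0.092 to 0.083 for *Lrp8*, -0.0038 to 0.36 for *Lhx1*, -0.073 to 0.34 for *Calb2*. For the members by genotype at 12 hours the range without 1 library was -0.22 to 0.14 for *Vldlr*, -0.088 to 0.71 for *Trp73*, -0.15 to 0.52 for *Ebf3*. For the members by genotype at 24 hours the range without 1 library was -0.15 to 0.20 for *Reln*, -0.071 to 0.13 for *Vldlr*, -0.027 to 0.090 for *Lrp8*, -0.51 to 0.36 for *Trp73*, -0.020 to 0.78 for *Lhx5*. For the members by genotype over the 12 cortices the range without 1 library was -0.10 to 0.061 for *Vldlr*. For the members from cortex to 12 hours the range without 1 library was -0.18 to 0.081 for *Dab1*, -0.024 to 0.041 for *Lrp8*, -0.25 to 0.036 for *Lhx1*. For the members from 12 to 24 hours the range without 1 library was -0.12 to 0.14 for *Dab1*, -0.056 to 0.10 for *Vldlr*, -0.061 to 0.013 for *Lrp8*, -0.13 to 0.36 for *Trp73*, -0.48 to 0.024 for *Calb2*, -0.19 to 0.073 for *Ebf2*.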
